A study of Mus musculus with 30 samples.

Results

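Liver mRNA of 5 mouse libraries labelled CDDP was set against that of 5 libraries labelled PBS, 10 of the 30 libraries of the series. CDDP is cisplatin, a platinum drug that crosslinks DNA, and members were chosen by the treatment label alone. Both groups were wild-type female C57BL/6J mice, which received an osmotic pump filled with phosphate-buffered saline (PBS) at an age of 8 weeks. CDDP mice were given the drug 72 hours after the pump, as a model of anorexia, and PBS mice were not. The labels give neither dose nor route nor the time of liver collection, and list no group with food restricted alone. Effects of the drug and of eating less therefore cannot be told apart. Whether every library is its own animal is not said, so the tests measure the spread between these libraries, which may be in part technical. The other 20 libraries (restraint stress, and a pump of acyl-CoA-binding protein alone or with either model) entered here through the shared estimate of spread and through the filter on low counts, which was set over all 30; of the genes called, 313 were not tested in a fit of the 10 libraries alone.

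Hepatocytes make most plasma proteins, clear bile acids and drugs through membrane carriers, and hold the enzymes of urea, sterol and glucose metabolism. Cisplatin lesions in DNA activate p53, a transcription factor that induces cell cycle inhibitors such as Cdkn1a. Inflammation raises the acute phase proteins through cytokines that signal to STAT3 and C/EBP factors, and low food intake lowers growth hormone signalling in the liver. These pathways are background for the gene groups below.

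Levels are counts scaled to library size with TMM factors (CPM), listed in the order of replicates 1 to 5, and means are given ± SD (n = 5 per group). A log2 fold change is CDDP over PBS from edgeR's quasi-likelihood fit, ± an approximate SE. A gene was called at a Benjamini-Hochberg adjusted p under 0.05. Adjusted p values are from the fit of all 30 libraries unless said otherwise. They can be far smaller than in the fit of the 10 libraries alone, as given below for Apoa4. The drug check came first. Cdkn1a had 154, 415, 212, 318 and 456 CPM in CDDP, against 6.46, 6.34, 1.84, 0.801 and 0.688 CPM in PBS. Every CDDP library lay above every PBS library (log2 fold change 6.58 ± 0.78, edgeR adjusted p = 5.59e-07). All 12 hepatocyte markers examined were expressed, and they took 11.4 ± 0.866% of the reads in CDDP and 11.5 ± 1.27% in PBS. Of these 12 markers, 5 were called higher and 4 lower (75% called, beside 41.4% of all genes). The share weighs markers by their reads, so its similar size in both groups does not mean that single markers were unchanged.

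Each CDDP library held 16969974 to 18479134 reads on genes and each PBS library 15147974 to 16775786 (difference of means 1570000, exact 2-sided permutation p = 0.00794, the smallest that 5 against 5 allows). Transcripts of the mitochondrial genome took 3.44 ± 0.422% of these reads in CDDP and 11.5 ± 1.85% in PBS, and reads aligned to more than 1 place made up 6.72 ± 0.462% of all reads in CDDP and 11.9 ± 0.378% in PBS (exact permutation p = 0.00794 for each). These 3 measures moved with the group. With the mitochondrial genome left out of the library sizes, all 144 genes named here kept their direction and their side of the threshold; the part of the other measures was not tested. Libraries stood apart in both groups. CDDP replicate 5 had at least 10 counts on 13106 genes, against 14495 to 15071 in the other CDDP libraries, and 904 of the tested genes had no count in it. PBS replicate 2 held 10600 CPM over 16 skeletal muscle markers, against 5.24 to 883 CPM in CDDP libraries and 13.9 to 568 CPM in the other PBS libraries. Muscle markers and the dependence on single libraries are given beside the genes they touch.

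Of 16304 genes tested, 6756 were called (41.4%), 3771 of them higher in CDDP (23.1%) and 2985 lower (18.3%). The changes were large as well as many. Of the calls, 396 rises and 505 falls exceeded 4-fold, and 121 rises and 170 falls exceeded 8-fold. Groups that did not overlap were found for 24.6% of genes, 2165 above PBS (13.3%) and 1853 below (11.4%). Among the calls, 2106 rises (12.9% of genes tested) and 1771 falls (10.9%) had such groups. When the fit held the 10 libraries alone, 4703 of the 6756 calls (69.6%) passed again in the same direction, and 313 were not tested there. Against a fold of at least 1.5 rather than any change, 2646 genes passed (16.2%). Long intergenic noncoding RNAs had 51 rises and 89 falls among 426 tested, with a median log2 fold change of -0.30, and pseudogenes had 188 rises and 77 falls among 629, with a median of 0.38, beside a median of 0.02 over all genes.

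**Figure D1:**
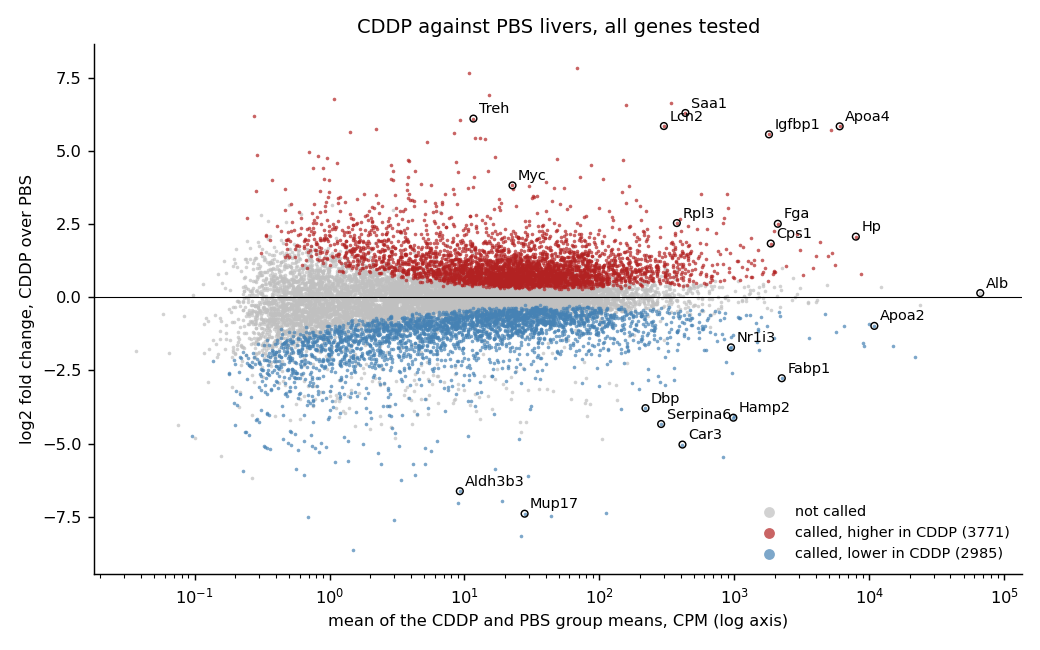
Log2 fold change of CDDP over PBS (vertical axis) against the mean level in CPM (horizontal log axis) for the 16304 genes tested, with 3771 called rises in red, 2985 called falls in blue and genes not called in grey. Circled genes are described in the text; Alb, the most abundant, lies near 0, while Apoa4, with a mean of 11873 CPM in CDDP, and Hamp2, with 107 CPM in CDDP, lie far above and far below 0.

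Some of the most abundant products of the liver differed in rank between the groups. Secreted proteins on the class list took 25.7 ± 2.56% of the reads in CDDP and 22.7 ± 1.6% in PBS, a difference of 3.0 percentage points, which was 0.9 with the mitochondrial genome left out of the total (26.6 ± 2.62% in CDDP and 25.7 ± 1.35% in PBS). Albumin (Alb), the main plasma protein, was first in both groups when counts were divided by exon length, and its level did not pass the test. It had 54442, 74978, 59672, 59795 and 100100 CPM in CDDP, against 49831, 73879, 69396, 70294 and 52608 CPM in PBS, and the groups overlapped (log2 fold change 0.14 ± 0.22, edgeR adjusted p = 0.627). The high value of CDDP replicate 5 set its sign, since the log2 fold change was -0.04 without that library. Haptoglobin (Hp), which binds free haemoglobin, ranked 9 per exon length in CDDP and 30 in PBS, and 14 in CDDP without replicate 5, its highest library. Apoa4, an apolipoprotein of triglyceride-rich particles, ranked 10 in CDDP and 464 in PBS, and 23 in CDDP without replicate 2, its highest library. Fabp1, the cytosolic fatty acid carrier of hepatocytes, ranked 57 in CDDP and 13 in PBS. These ranks are a description with no test.

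**Figure D2:**
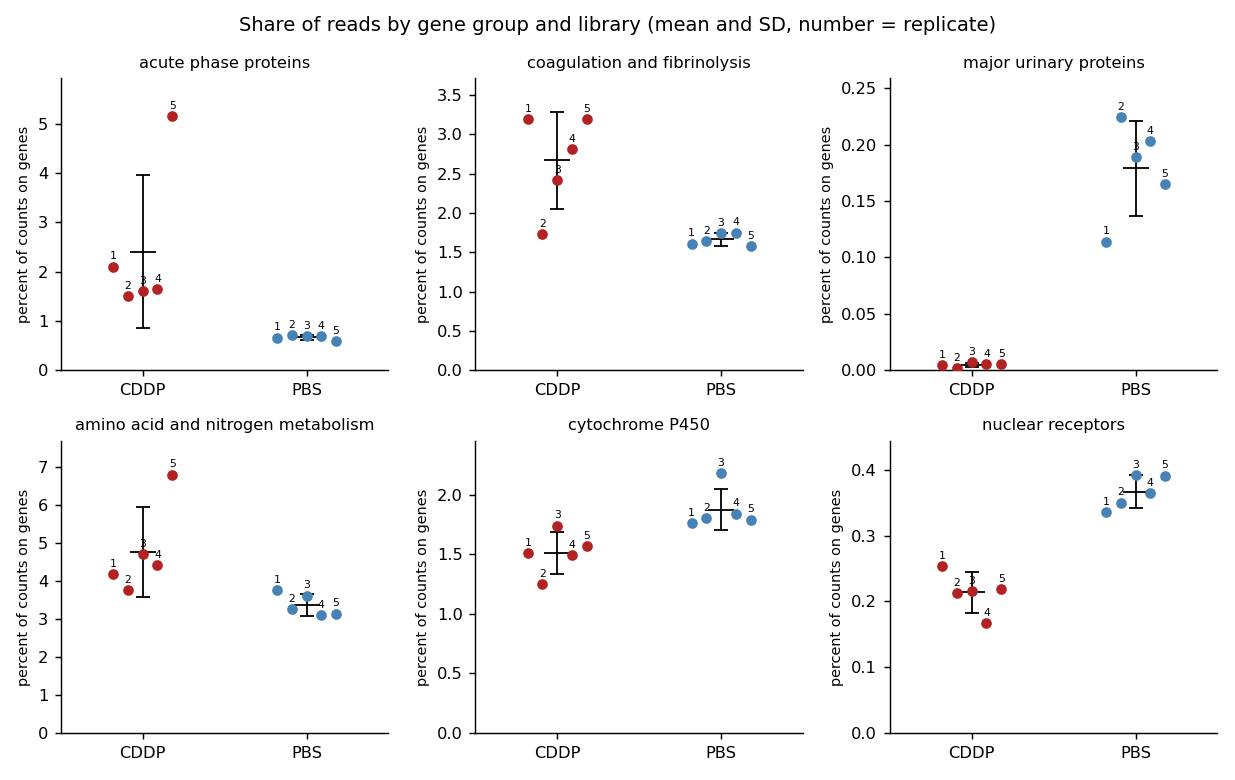
Percent of the reads counted on genes that fell on 6 gene groups, in each CDDP library (red) and PBS library (blue), with mean and SD as black bars and the replicate number above each point. Acute phase proteins lay between 1.51 and 5.15% in CDDP, against 0.59 to 0.711% in PBS, and nuclear receptors between 0.167 and 0.253% in CDDP, against 0.336 to 0.392% in PBS.

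Secreted proteins were called in 54 rises and 59 falls among 192 tested (58.9%, beside 41.4% of all genes). Apolipoproteins divided: 4 of 12 rose and 3 fell (58.3% called). Apoa4 had 443, 37985, 2819, 7808 and 10309 CPM in CDDP, against 170, 269, 221, 225 and 149 CPM in PBS. All CDDP libraries lay above all PBS libraries, but they spanned a wide range, with replicate 1 lowest and replicate 2 highest (log2 fold change 5.84 ± 0.68, edgeR adjusted p = 4.27e-07). Without CDDP replicate 2 the log2 fold change was 4.69. In the fit of the 10 libraries alone the edgeR adjusted p was 0.00133. A noncoding gene on the opposite strand of Apoa4, Gm10680, had 10279 ± 13150 CPM in CDDP and 196 ± 42.2 CPM in PBS, and reads of the pair cannot be told apart because the strand setting of the counting is not given. Apom, the carrier of sphingosine 1-phosphate on high-density lipoprotein, had 242, 316, 215, 257 and 361 CPM in CDDP, against 33.9, 64.1, 71.9, 54.8 and 36.5 CPM in PBS. Its groups were far apart and tight (log2 fold change 2.41 ± 0.28, edgeR adjusted p = 4.56e-07). Apoa2, a structural protein of high-density lipoprotein, averaged 7344 ± 1640 CPM in CDDP and 14475 ± 1612 CPM in PBS (log2 fold change -0.98 ± 0.19, edgeR adjusted p = 0.000219). Apoc1, an inhibitor of lipoprotein uptake, averaged 3418 ± 1617 CPM in CDDP and 7856 ± 948 CPM in PBS (log2 fold change -1.20 ± 0.22, edgeR adjusted p = 9.62e-05). Both fell with no overlap between groups. Apoa1 and Apoe, the main proteins of high-density and remnant lipoproteins, were not called, with log2 fold changes of 0.34 ± 0.26 and -0.25 ± 0.19.

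Fibrinogen, the precursor of the fibrin clot, is built from 3 chains whose genes lie side by side on chromosome 3. The stretches of 250 bases before the start sites of these genes, from RefSeq (GRCm38.p6, strand as the gene), are shown because the 3 neighbours were all called higher, and were chosen for printing after the motif matches were seen. Capitals mark CTGGGAA, the core of an interleukin 6 response element described for acute phase genes, searched on both strands; 9.08% of the 27025 promoter windows of this length held it.
Fga chr3:83025903-83026152 (+): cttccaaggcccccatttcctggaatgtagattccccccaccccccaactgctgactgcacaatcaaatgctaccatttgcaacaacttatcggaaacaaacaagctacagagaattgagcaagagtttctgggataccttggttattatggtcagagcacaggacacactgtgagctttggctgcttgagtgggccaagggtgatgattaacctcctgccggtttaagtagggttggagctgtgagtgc
Fgb chr3:83049864-83050113 (-): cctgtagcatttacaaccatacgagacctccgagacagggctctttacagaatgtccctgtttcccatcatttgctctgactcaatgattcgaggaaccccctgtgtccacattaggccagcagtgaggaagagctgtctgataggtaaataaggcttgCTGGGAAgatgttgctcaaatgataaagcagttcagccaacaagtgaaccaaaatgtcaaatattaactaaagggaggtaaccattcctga
Fgg chr3:83007474-83007723 (+): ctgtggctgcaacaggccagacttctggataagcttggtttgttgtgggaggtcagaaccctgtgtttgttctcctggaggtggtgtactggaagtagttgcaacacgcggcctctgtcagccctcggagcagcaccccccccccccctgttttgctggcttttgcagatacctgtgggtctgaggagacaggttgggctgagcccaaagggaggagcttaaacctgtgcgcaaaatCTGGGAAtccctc
The windows of Fgb and Fgg held 1 match each, its first base 91 and 13 bases before the start site, and that of Fga held none; a match is a description of letters and no measure of binding. The alpha chain gene Fga had 3449, 1991, 2636, 4510 and 5280 CPM in CDDP, against 472, 709, 866, 745 and 341 CPM in PBS (log2 fold change 2.51 ± 0.42, edgeR adjusted p = 3.3e-05). The beta chain gene Fgb had 6109, 3262, 4061, 5463 and 10562 CPM in CDDP, against 2044, 2224, 2234, 2545 and 1976 CPM in PBS (log2 fold change 1.42 ± 0.26, edgeR adjusted p = 0.000121). In both, every CDDP library exceeded every PBS library, and replicate 5 was the highest and replicate 2 the lowest of the CDDP libraries. The gamma chain gene Fgg ranked the CDDP libraries in the same order as Fgb, with 4721 ± 2687 CPM in CDDP and 1060 ± 187 CPM in PBS (log2 fold change 2.16 ± 0.34, edgeR adjusted p = 1.94e-05).

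Of 29 genes of coagulation and fibrinolysis, fibrinogen included, 12 rose and 3 fell (51.7% called, beside 41.4% of all genes). Their reads were 2.67 ± 0.62% of all in CDDP and 1.66 ± 0.0764% in PBS. CDDP replicate 2, at 1.73%, lay within the PBS range of 1.58 to 1.75%. Fgl1, a fibrinogen-like protein of hepatocytes, averaged 1143 ± 537 CPM in CDDP and 412 ± 37.9 CPM in PBS (log2 fold change 1.47 ± 0.27, edgeR adjusted p = 0.000108). Pros1 encodes protein S, the cofactor of anticoagulant protein C. It had 65.5, 107, 54.8, 71.1 and 280 CPM in CDDP, against 26.6, 31.2, 34.7, 27.2 and 32.3 CPM in PBS. The groups did not overlap and CDDP replicate 5 was the highest (log2 fold change 1.93 ± 0.28, edgeR adjusted p = 6.39e-06), and without that library the log2 fold change was 1.28. The prekallikrein gene Klkb1, which starts the contact system, fell in all CDDP libraries, with 113 ± 53.4 CPM in CDDP and 300 ± 16.4 CPM in PBS (log2 fold change -1.41 ± 0.23, edgeR adjusted p = 2.91e-05).

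Acute phase proteins had 14 rises and 0 falls among 19 tested (73.7% called, beside 41.4% of all genes). Their median log2 fold change was 2.08, and they took 2.4 ± 1.55% of the reads in CDDP and 0.668 ± 0.0472% in PBS. Hp had 8862, 5369, 6102, 6069 and 37884 CPM in CDDP, against 2799, 3109, 3257, 2984 and 3144 CPM in PBS. Replicate 5 stood far above the next CDDP library, yet the other 4 also lay above every PBS library (log2 fold change 2.07 ± 0.38, edgeR adjusted p = 0.00011), with a log2 fold change of 1.09 without replicate 5. Serpina3k, a serine protease inhibitor, had 5825, 6001, 5708, 4882 and 11369 CPM in CDDP, against 1730, 2246, 1916, 2192 and 1036 CPM in PBS (log2 fold change 1.89 ± 0.33, edgeR adjusted p = 5.16e-05). Reads that also fit near-identical neighbours of the Serpina3 family fall under the multiply aligned reads, which were left out. Lipocalin 2 (Lcn2), which binds bacterial siderophores, had 284, 446, 109, 214 and 1902 CPM in CDDP, against 14.4, 10.2, 10.9, 7.64 and 7.94 CPM in PBS. No PBS library came near the lowest CDDP library, replicate 3 (log2 fold change 5.85 ± 0.71, edgeR adjusted p = 7.37e-07; log2 fold change 4.67 without CDDP replicate 5). Saa1, a serum amyloid of high-density lipoprotein, differed widely among CDDP libraries, with 262, 18.4, 117, 157 and 3732 CPM in CDDP, against 11.1, 10.2, 14.5, 8.44 and 10.1 CPM in PBS. Replicate 2 lay just above PBS and replicate 5 far above the rest (log2 fold change 6.30 ± 1.09, edgeR adjusted p = 5.61e-05; log2 fold change 3.66 without replicate 5). Lrg1, a leucine-rich plasma glycoprotein named after its values were seen, averaged 1443 ± 1110 CPM in CDDP and 222 ± 38.8 CPM in PBS (log2 fold change 2.70 ± 0.37, edgeR adjusted p = 3.02e-06; 2.11 without replicate 5). Lbp, which hands bacterial lipopolysaccharide to CD14, had 168, 109, 175, 208 and 1183 CPM in CDDP, against 99.5, 83.3, 92.2, 73.8 and 86.7 CPM in PBS, a log2 fold change of 2.08 ± 0.41 with all libraries and of 0.91 without replicate 5.

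Not every abundant plasma protein with a rise had separate groups. Hemopexin (Hpx), the haem carrier, had 5461, 2289, 4617, 5268 and 18132 CPM in CDDP, against 2326, 2828, 2528, 3244 and 2596 CPM in PBS. CDDP replicate 2 lay just below the lowest PBS library and replicate 5 stood far above (log2 fold change 1.40 ± 0.34, edgeR adjusted p = 0.00163; 0.69 without replicate 5). Complement C3, the central complement component, overlapped through replicate 2, which lay inside the PBS range, with 8744, 3310, 5600, 5848 and 14445 CPM in CDDP, against 3556, 3164, 3830, 3559 and 3363 CPM in PBS (log2 fold change 1.12 ± 0.26, edgeR adjusted p = 0.00097). Fetuin A (Ahsg), an inhibitor of calcification, was called with all libraries (log2 fold change 0.81 ± 0.25, edgeR adjusted p = 0.0113), but not without CDDP replicate 5 (edgeR adjusted p = 0.0611) and not in the fit of the 10 libraries alone (edgeR adjusted p = 0.0513). Retinol-binding protein (Rbp4) rose in all 5 libraries, with 4409, 5309, 4593, 4594 and 6861 CPM in CDDP, against 2010, 2795, 3469, 2528 and 2059 CPM in PBS (log2 fold change 1.0 ± 0.23, edgeR adjusted p = 0.000879). Its partner in the circulation, transthyretin (Ttr), fell in all 5, with 5547, 2613, 5683, 4272 and 3782 CPM in CDDP, against 7594, 8245, 10236, 9463 and 7225 CPM in PBS (log2 fold change -0.97 ± 0.22, edgeR adjusted p = 0.000819). Neither group pair overlapped, so carriers of the same plasma complex changed in opposite directions.

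Large falls were found among secreted proteins too. Corticosteroid-binding globulin, encoded by Serpina6, had 43.2, 0.78, 62.2, 26.9 and 2.34 CPM in CDDP, against 320, 526, 637, 614 and 636 CPM in PBS. The highest CDDP value was below the lowest PBS value, and replicates 2 and 5 were nearly without the transcript (log2 fold change -4.33 ± 0.63, edgeR adjusted p = 7.1e-06). Major urinary proteins, pheromone carriers of the lipocalin family, had 17 falls and 0 rises among 18 tested (94.4% called, beside 41.4% of all genes). They took 0.00477 ± 0.00185% of the reads in CDDP and 0.179 ± 0.0422% in PBS. Mup17 averaged 0.342 ± 0.275 CPM in CDDP and 55.5 ± 48.9 CPM in PBS (log2 fold change -7.40 ± 1.25, edgeR adjusted p = 4.12e-05), and limma voom with sample quality weights did not call it (adjusted p = 0.0855). Reads that fit more than 1 of these near-identical genes fall under the multiply aligned reads, which were left out. Multiply aligned reads were 6.72 ± 0.462% of all in CDDP and 11.9 ± 0.378% in PBS, and their part in the values of these genes was not tested. Hamp encodes hepcidin, the iron hormone, and mice carry a second, near-identical gene, Hamp2. Hamp2 had 192, 3.68, 176, 159 and 5.97 CPM in CDDP, against 1828, 1834, 1962, 1562 and 2116 CPM in PBS. It fell in every library, most in replicates 2 and 5 (log2 fold change -4.12 ± 0.72, edgeR adjusted p = 6.03e-05), while Hamp had 2511, 2969, 2736, 2972 and 5383 CPM in CDDP, against 2233, 1890, 2107, 2189 and 2143 CPM in PBS and did not pass the test (edgeR adjusted p = 0.29) although every CDDP library lay above every PBS library. A long noncoding RNA that overlaps this locus, Gm44662, had 112 CPM in CDDP and 1880 CPM in PBS, close to Hamp2, and reads of these genes cannot be told apart.

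Complement, the plasma cascade that marks and lyses microbes, had 4 rises and 13 falls among 28 tested (60.7% called, beside 41.4% of all genes). Yet its share of reads was 1.25 ± 0.414% in CDDP and 0.943 ± 0.0527% in PBS, with C3 among its members. In CDDP replicate 2 the share was 0.666%, below the 0.862 to 1.01% of PBS libraries. Colec11, a collectin of the lectin pathway, averaged 8.32 ± 4.63 CPM in CDDP and 27.7 ± 4.49 CPM in PBS (log2 fold change -1.72 ± 0.29, edgeR adjusted p = 3.44e-05). C1s1, a protease of the classical pathway, averaged 235 ± 101 CPM in CDDP and 519 ± 56.2 CPM in PBS (log2 fold change -1.14 ± 0.20, edgeR adjusted p = 4.89e-05). The antisense gene Gm16567 over it had 98.8 CPM in CDDP and 201 CPM in PBS, and reads of the pair cannot be told apart. C9, the pore-forming last component, had 78.2, 2.34, 40, 28 and 5.73 CPM in CDDP, against 78, 92.9, 104, 124 and 80.1 CPM in PBS. CDDP replicate 1 lay at the low edge of PBS and replicates 2 and 5 were lowest (log2 fold change -1.63 ± 0.47, edgeR adjusted p = 0.00637), and the call was not made in the fit of the 10 libraries alone (edgeR adjusted p = 0.083). Without CDDP replicate 1 the log2 fold change was -2.33.

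Hormones, growth factors and their binding proteins had 8 rises and 14 falls among 47 tested, a share called (46.8%) close to that of all genes (41.4%). Among genes of the growth hormone axis, picked for their roles, some fell and some rose. The receptor gene Ghr averaged 113 ± 45.8 CPM in CDDP and 226 ± 35.3 CPM in PBS (log2 fold change -1.0 ± 0.23, edgeR adjusted p = 0.00133). Igf1, the circulating growth factor that the receptor induces, had 456, 298, 362, 242 and 494 CPM in CDDP, against 716, 782, 788, 939 and 696 CPM in PBS. Every CDDP library lay below every PBS library (log2 fold change -1.08 ± 0.24, edgeR adjusted p = 0.000696). Igfals, the acid-labile subunit that holds IGF1 in the blood, averaged 31.1 ± 18.9 CPM in CDDP and 110 ± 23 CPM in PBS (log2 fold change -1.81 ± 0.31, edgeR adjusted p = 5.47e-05). The binding protein gene Igfbp3 averaged 13.2 ± 4.76 CPM in CDDP and 22.4 ± 3.28 CPM in PBS (log2 fold change -0.76 ± 0.25, edgeR adjusted p = 0.0156). Igfbp1 moved the other way. It had 248, 2376, 540, 1288 and 13242 CPM in CDDP, against 139, 70.8, 24.5, 55 and 84.2 CPM in PBS, with no overlap and a wide spread over the CDDP libraries (log2 fold change 5.57 ± 0.83, edgeR adjusted p = 9.03e-06; 3.88 without CDDP replicate 5). Igfbp2 was called with all libraries (log2 fold change 0.91 ± 0.28, edgeR adjusted p = 0.0111) but not without CDDP replicate 2 (edgeR adjusted p = 0.0565), without replicate 5 (0.0547) or in the fit of the 10 libraries (0.0541). Socs2, an inhibitor of growth hormone signalling that the hormone itself induces, rose to 209 ± 181 CPM in CDDP, against 39.4 ± 9.86 CPM in PBS (log2 fold change 2.40 ± 0.59, edgeR adjusted p = 0.00183; 1.72 without replicate 5), opposite in direction to Igf1.

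Of the factors that act on other tissues, Angptl8, an inhibitor of lipoprotein lipase that rises with feeding, had 117, 20.7, 89.9, 90.3 and 12.4 CPM in CDDP, against 217, 430, 233, 996 and 587 CPM in PBS. The groups did not overlap, and PBS libraries varied as well (log2 fold change -2.90 ± 0.49, edgeR adjusted p = 4.37e-05). Vegfa, the endothelial growth factor, averaged 226 ± 63 CPM in CDDP and 519 ± 69.3 CPM in PBS (log2 fold change -1.20 ± 0.20, edgeR adjusted p = 4.14e-05). Hgfac, the activator of hepatocyte growth factor, averaged 250 ± 79.8 CPM in CDDP and 653 ± 66.7 CPM in PBS (log2 fold change -1.38 ± 0.18, edgeR adjusted p = 2.09e-06). Rarres2, the chemerin gene, averaged 336 ± 120 CPM in CDDP and 767 ± 66.4 CPM in PBS (log2 fold change -1.19 ± 0.22, edgeR adjusted p = 0.000134). The overlapping gene Lrrc61 had 247 CPM in CDDP and 596 CPM in PBS. Fndc5, a membrane precursor made in muscle, was called (log2 fold change -4.64 ± 1.11, edgeR adjusted p = 0.00146), but its PBS mean rested on replicate 2 at 23.2 CPM, the library with 10600 CPM of muscle markers, and its log2 fold change was -2.66 without it; limma voom with sample quality weights did not call it (adjusted p = 0.14). Inhbb and Nrg1 rose from low levels. Inhbb, the beta B subunit of activin, had 3.36, 23.6, 5.32, 17.7 and 2.66 CPM in CDDP, against 0.897, 1.4, 0.246, 0.739 and 0.375 CPM in PBS (log2 fold change 3.83 ± 0.60, edgeR adjusted p = 1.83e-05). Nrg1, a ligand of ERBB receptors, had 1.14, 21.6, 3.35, 7.87 and 3.07 CPM in CDDP, against 0.359, 0.116, 0.246, 0.493 and 0.188 CPM in PBS (log2 fold change 4.69 ± 0.73, edgeR adjusted p = 1.52e-05; 3.75 without CDDP replicate 2). In both genes replicates 2 and 4 were the highest of the CDDP libraries.

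**Figure D3:**
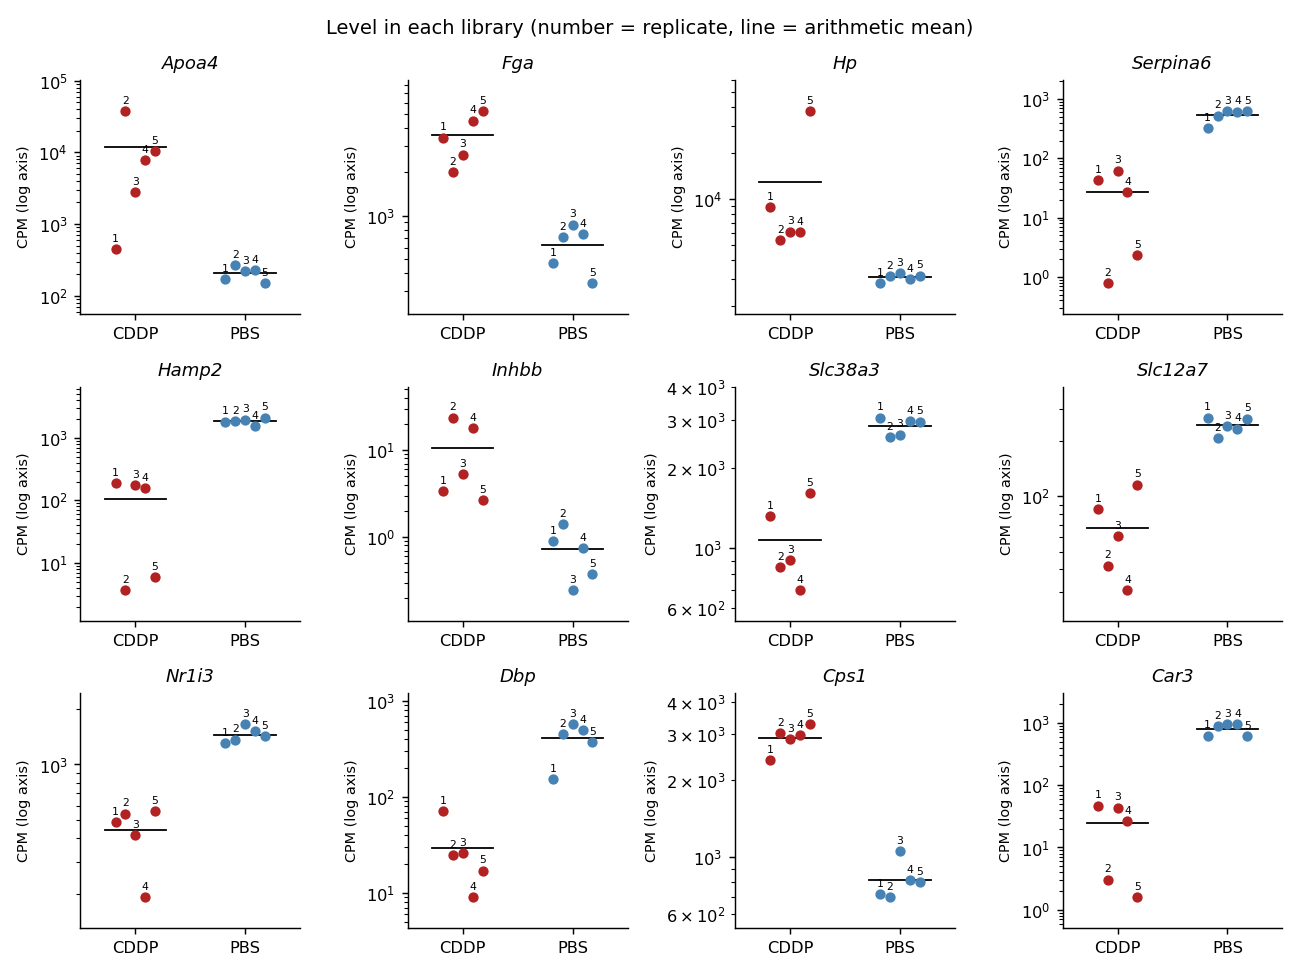
Level in CPM (log axis) of 12 genes in each CDDP library (red, left) and PBS library (blue, right), with the replicate number above each point and the arithmetic mean as a line. Groups do not overlap in any panel; replicates 2 and 5 are the lowest CDDP libraries for Serpina6, Hamp2 and Car3, and replicate 5 is the highest for Hp at 37884 CPM.

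Membrane carriers were called in 63 rises and 74 falls among 311 tested (44.1%, beside 41.4% of all genes). Carriers that bring bile acids and organic ions into and out of hepatocytes had 4 rises and 14 falls among 39 (46.2%). Slc47a1 exports organic cations and is a known carrier of cisplatin. It had 161, 85, 148, 74.7 and 57.4 CPM in CDDP, against 353, 265, 279, 298 and 307 CPM in PBS, with every CDDP library below every PBS library (log2 fold change -1.51 ± 0.22, edgeR adjusted p = 6.84e-06). Slc22a7, an organic anion carrier, averaged 9.35 ± 5.46 CPM in CDDP and 27.9 ± 5.53 CPM in PBS (log2 fold change -1.57 ± 0.38, edgeR adjusted p = 0.00171). Slco1b2 takes up bile acids and drugs from blood. It was called (log2 fold change -0.73 ± 0.24, edgeR adjusted p = 0.0164), but the call ended, among others, in the fit of the 10 libraries (edgeR adjusted p = 0.116) and on leaving out CDDP replicate 2 (edgeR adjusted p = 0.0567). The sodium-dependent uptake carrier Slc10a1 was not called, with 292 ± 58.7 CPM in CDDP and 219 ± 51.6 CPM in PBS. Slc10a2, the bile acid carrier known from ileum and bile duct, rose to 19.1 ± 4.3 CPM in CDDP, against 3.36 ± 2.13 CPM in PBS (log2 fold change 2.50 ± 0.41, edgeR adjusted p = 2.71e-05). The export pump Abcc4, which moves bile acids and nucleotides across the sinusoidal membrane, had 7.91, 14, 14.7, 19.6 and 27.6 CPM in CDDP, against 2.93, 2.73, 3.75, 4.87 and 2.06 CPM in PBS; it rose with no overlap (log2 fold change 2.35 ± 0.32, edgeR adjusted p = 2.54e-06).

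Metal carriers had 12 rises and 5 falls among 31 (54.8%, beside 41.4% of all genes). Slc41a2, a magnesium carrier, had 54.3, 28.8, 30.8, 56.4 and 144 CPM in CDDP, against 9.51, 4.19, 5.59, 5.05 and 4.06 CPM in PBS. Among carriers called with separate groups it had the largest log2 fold change (log2 fold change 3.46 ± 0.54, edgeR adjusted p = 1.64e-05). Slc39a14 brings zinc and iron into hepatocytes in inflammation, and had 391, 302, 275, 352 and 1776 CPM in CDDP, against 223, 172, 227, 206 and 204 CPM in PBS. Replicate 5 stood apart, and without it the log2 fold change was 0.66, while the other 4 CDDP libraries still lay above PBS (log2 fold change 1.58 ± 0.35, edgeR adjusted p = 0.000831). Slc25a33, a mitochondrial pyrimidine nucleotide carrier, averaged 80.7 ± 116 CPM in CDDP and 8.29 ± 2.08 CPM in PBS (log2 fold change 3.28 ± 0.54, edgeR adjusted p = 3.39e-05; 1.78 without replicate 5). Slc35f5, a solute carrier of the SLC35 family, averaged 41.9 ± 13.8 CPM in CDDP and 12.4 ± 1.61 CPM in PBS (log2 fold change 1.75 ± 0.22, edgeR adjusted p = 8.65e-07).

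Amino acid carriers took 0.35 ± 0.0563% of the reads in CDDP and 0.518 ± 0.0309% in PBS. They had 5 rises and 8 falls among 39 (33.3% called, below the 41.4% of all genes), with a median log2 fold change of -0.08. The share weighs members by their reads, so the fall of the abundant Slc38a3 counts heavily in it and the share does not describe most members. Slc38a3, the glutamine carrier of hepatocytes, had 1316, 851, 904, 699 and 1609 CPM in CDDP, against 3072, 2597, 2653, 2980 and 2969 CPM in PBS, with no overlap (log2 fold change -1.41 ± 0.18, edgeR adjusted p = 1.86e-06). The cationic amino acid carrier gene Slc7a2 was called with all libraries (log2 fold change 0.92 ± 0.34, edgeR adjusted p = 0.0339), but replicate 5 held 1557 CPM, and without that library the edgeR adjusted p was 0.5; the call was also lost without PBS replicate 1, 2 or 4 and in the fit of the 10 libraries (0.123). Its low-level relative Slc7a1 averaged 2.04 ± 0.77 CPM in CDDP and 0.612 ± 0.402 CPM in PBS (log2 fold change 1.72 ± 0.56, edgeR adjusted p = 0.0151). Among sugar carriers 6 of 22 rose and 1 fell (31.8% called). Slc2a1, the widely expressed glucose carrier GLUT1, averaged 27.4 ± 19 CPM in CDDP and 10 ± 2.12 CPM in PBS (log2 fold change 1.45 ± 0.29, edgeR adjusted p = 0.000304). Slc2a2, the hepatocyte carrier GLUT2, had 218, 171, 247, 162 and 32.6 CPM in CDDP, against 254, 216, 288, 230 and 239 CPM in PBS. Replicate 5 lay far below the rest, replicates 2 and 4 lay below the PBS range and replicates 1 and 3 inside it, and the gene was not called (edgeR adjusted p = 0.089). It passed without CDDP replicate 3 (edgeR adjusted p = 0.0296) and with DESeq2 (adjusted p = 0.0449).

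Carrier groups not yet described mostly held rises and falls. Monocarboxylate, citrate, nucleoside and vitamin carriers had 15 rises and 18 falls of 60 (55% called, beside 41.4% of all genes). ABC transporters had 6 rises and 10 falls of 37 (43.2%). Examples of falls follow. The potassium chloride carrier Slc12a7 had 85.2, 42, 60.9, 30.9 and 116 CPM in CDDP, against 269, 208, 240, 234 and 265 CPM in PBS (log2 fold change -1.86 ± 0.28, edgeR adjusted p = 1.3e-05). The fatty acid carrier Slc27a1 averaged 10.2 ± 3.06 CPM in CDDP and 33.7 ± 14.1 CPM in PBS (log2 fold change -1.73 ± 0.29, edgeR adjusted p = 3.31e-05). Abcc6, which releases ATP from hepatocytes, averaged 217 ± 71.8 CPM in CDDP and 466 ± 89.6 CPM in PBS (log2 fold change -1.10 ± 0.22, edgeR adjusted p = 0.000251). The nucleoside carrier Slc29a1 averaged 262 ± 105 CPM in CDDP and 514 ± 51.6 CPM in PBS (log2 fold change -0.97 ± 0.19, edgeR adjusted p = 0.000186), with 88.3 CPM in CDDP and 164 CPM in PBS on the antisense gene Gm17080 over it.

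Transcription factors were called in 75 rises and 98 falls among 364 tested (47.5%, beside 41.4% of all genes). Nuclear receptors, factors switched by hormones, bile acids and xenobiotics, fell more often than they rose, 15 against 5 of 38 (52.6% called). Their median log2 fold change was -0.43, and their share of reads was 0.214 ± 0.0309% in CDDP and 0.367 ± 0.0246% in PBS. The share weighs members by their reads, so the fall of the abundant Nr1i3, described below with its overlapping neighbour, counts heavily in it. Groups were separate in 0 of the 5 rises and 9 of the 15 falls. Over all genes they were separate in 2106 of 3771 called rises and 1771 of 2985 called falls, so the share among receptor falls was near that of all falls. Hnf4a was counted with the hepatocyte factors, not on this list. Nr1i3, the xenobiotic receptor CAR, had 490, 544, 418, 194 and 564 CPM in CDDP, against 1307, 1361, 1644, 1510 and 1420 CPM in PBS. Replicate 4 was the lowest by far and all CDDP libraries were below PBS (log2 fold change -1.71 ± 0.27, edgeR adjusted p = 1.63e-05). Its neighbour Tomm40l, which overlaps it, had 427 CPM in CDDP and 1420 CPM in PBS, and reads of the pair cannot be told apart. The bile acid receptor gene Nr1h4 averaged 91.9 ± 28.9 CPM in CDDP and 199 ± 35.7 CPM in PBS (log2 fold change -1.11 ± 0.22, edgeR adjusted p = 0.000225). Nr1h5, a lanosterol-binding relative of the bile acid receptor in mice, averaged 1.49 ± 1.32 CPM in CDDP and 13.5 ± 2.63 CPM in PBS (log2 fold change -3.16 ± 0.37, edgeR adjusted p = 5.59e-07). Hnf4a, the master factor of hepatocyte identity, went the other way, with 674, 715, 624, 741 and 1053 CPM in CDDP, against 547, 456, 392, 452 and 470 CPM in PBS; the change was small but the groups did not overlap (log2 fold change 0.72 ± 0.17, edgeR adjusted p = 0.00126).

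Leucine zipper (bZIP) factors had the highest share of calls of the 6 transcription factor groups, 20 rises and 13 falls of 46 (71.7%). Jund, a partner in AP-1, averaged 353 ± 368 CPM in CDDP and 92.4 ± 9.6 CPM in PBS (log2 fold change 1.93 ± 0.37, edgeR adjusted p = 0.000161; 1.03 without replicate 5), with 296 CPM in CDDP and 66.1 CPM in PBS on the antisense gene Gm11175. Fosl2, its FOS-type partner, averaged 38.9 ± 35.2 CPM in CDDP and 9.15 ± 1.7 CPM in PBS (log2 fold change 2.08 ± 0.35, edgeR adjusted p = 3.48e-05; 1.33 without replicate 5). Cebpd, the C/EBP factor induced in the acute phase, had 10.1, 42.2, 24.1, 31.4 and 134 CPM in CDDP, against 9.63, 9.02, 7.99, 6.59 and 6.69 CPM in PBS (log2 fold change 2.60 ± 0.40, edgeR adjusted p = 1.44e-05; 1.74 without replicate 5). CDDP replicate 1 was only just above PBS. Atf5, a factor of the mitochondrial stress response, had 600, 749, 485, 560 and 348 CPM in CDDP, against 192, 204, 145, 169 and 160 CPM in PBS, a rise in which replicate 5 was the lowest CDDP library (log2 fold change 1.65 ± 0.29, edgeR adjusted p = 5.54e-05). Nfe2l2, which encodes NRF2, the sensor-controlled activator of antioxidant genes, fell, with 112, 77.1, 94.5, 85.5 and 114 CPM in CDDP, against 184, 128, 146, 135 and 196 CPM in PBS (log2 fold change -0.71 ± 0.22, edgeR adjusted p = 0.0109). Several of these factors are also made by immune cells, and the summed level of Kupffer cell and macrophage markers was 262 to 367 CPM in CDDP and 395 to 487 CPM in PBS. This list had 1 rise and 9 falls among 15 (66.7% called, beside 41.4% of all genes). In bulk liver, fewer cells of a type and less RNA per cell cannot be told apart.

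Other transcription factors were called one by one in either direction. Myc, a factor of growth and ribosome production, had 8.47, 20.4, 56, 32.1 and 95 CPM in CDDP, against 2.39, 3.2, 3.32, 3.94 and 2.06 CPM in PBS. The lowest CDDP library, replicate 1, was still above the highest PBS library (log2 fold change 3.82 ± 0.51, edgeR adjusted p = 2.32e-06). Stat3, the factor through which interleukin 6 signals, averaged 232 ± 149 CPM in CDDP and 79 ± 15 CPM in PBS (log2 fold change 1.55 ± 0.28, edgeR adjusted p = 8.28e-05). Klf6, a zinc finger factor of liver injury, averaged 35.3 ± 17.6 CPM in CDDP and 9.09 ± 2.05 CPM in PBS (log2 fold change 1.96 ± 0.29, edgeR adjusted p = 7.49e-06). Epas1, the hypoxia factor HIF2A, had 216, 178, 204, 206 and 620 CPM in CDDP, against 67.9, 114, 114, 89.6 and 81.5 CPM in PBS (log2 fold change 1.61 ± 0.25, edgeR adjusted p = 1.53e-05). The immediate early gene Egr1 averaged 217 ± 211 CPM in CDDP and 32 ± 8.36 CPM in PBS (log2 fold change 2.76 ± 0.71, edgeR adjusted p = 0.00268; 1.98 without replicate 5). Bhlha15, a secretory cell factor, had 10.2, 0.78, 8.07, 7.66 and 0.645 CPM in CDDP, against 0.478, 0.174, 0.123, 0.123 and 0.25 CPM in PBS, so that replicates 2 and 5 were near the PBS level and the other 3 were far above it (log2 fold change 4.53 ± 0.84, edgeR adjusted p = 0.000123); the filter of the 10-library fit removed it. Srebf1, the insulin-dependent activator of fatty acid synthesis, fell to 119 ± 48.8 CPM in CDDP, against 495 ± 220 CPM in PBS (log2 fold change -2.06 ± 0.31, edgeR adjusted p = 8.84e-06).

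Genes of the circadian clock were picked for their roles, with no count over a clock list. Dbp, an output factor that peaks in the day, had 71.2, 24.9, 25.8, 9.07 and 17 CPM in CDDP, against 153, 453, 571, 498 and 374 CPM in PBS. The groups did not overlap; PBS replicate 1 was the lowest of its group (log2 fold change -3.79 ± 0.55, edgeR adjusted p = 6.31e-06). Reads on the overlapping gene Sphk2 were 90.6 CPM in CDDP and 305 CPM in PBS. Nfil3, a repressor that binds the same sites as DBP, had 30, 12.4, 29.5, 43.3 and 396 CPM in CDDP, against 20.3, 11.1, 7.87, 7.21 and 16.1 CPM in PBS, with overlap through CDDP replicate 2 and PBS replicates 1 and 5 (log2 fold change 3.03 ± 0.63, edgeR adjusted p = 0.000412; 1.19 without CDDP replicate 5). The core activator Arntl (BMAL1) had 9.04, 7.74, 10.7, 11.7 and 11.5 CPM in CDDP, against 5.08, 0.989, 0.43, 0.986 and 0.875 CPM in PBS. PBS replicate 1 stood apart from the other 4 PBS libraries (log2 fold change 2.59 ± 0.85, edgeR adjusted p = 0.0158; 3.61 without that library). Its partner Clock averaged 24.8 ± 4.46 CPM in CDDP and 13.7 ± 5.6 CPM in PBS (log2 fold change 0.86 ± 0.27, edgeR adjusted p = 0.0128). The repressor Nr1d1 (REV-ERB alpha) averaged 91.8 ± 59.2 CPM in CDDP and 199 ± 39.3 CPM in PBS (log2 fold change -1.11 ± 0.31, edgeR adjusted p = 0.00509); both overlapped between groups. Per3, an output and repressor gene, had 50, 19, 17.8, 4.34 and 13.5 CPM in CDDP, against 35.3, 127, 135, 139 and 106 CPM in PBS (log2 fold change -2.38 ± 0.58, edgeR adjusted p = 0.00179), and PBS replicate 1 again lay among the CDDP values. The 250 bases before its start site (RefSeq, GRCm38.p6) are shown because they hold 2 copies of the D-box TTATGTAA, in capitals. It is a site which DBP and NFIL3 are known to bind and which 0.862% of the 27025 windows held on either strand.
Per3 chr4:151044666-151044915 (-): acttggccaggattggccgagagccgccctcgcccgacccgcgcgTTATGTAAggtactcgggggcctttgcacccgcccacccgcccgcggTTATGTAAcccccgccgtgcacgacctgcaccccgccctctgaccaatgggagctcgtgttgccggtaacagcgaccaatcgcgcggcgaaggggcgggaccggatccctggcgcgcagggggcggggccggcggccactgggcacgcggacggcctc
The copies begin 205 and 158 bases before the start site. The hour at which livers were taken is not given, so clock state and treatment cannot be told apart.

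Enzymes were called in 155 rises and 104 falls among 510 tested (50.8%, beside 41.4% of all genes). Amino acid and nitrogen metabolism had 27 rises and 11 falls among 67 (56.7%) and took 4.76 ± 1.18% of the reads in CDDP and 3.37 ± 0.296% in PBS. By library the share was 4.17, 3.75, 4.7, 4.42 and 6.79% in CDDP, with replicate 5 far highest, against 3.09 to 3.75% in PBS. With the mitochondrial genome left out of the total, CDDP replicates 1 and 2 held 4.34 and 3.85%, against 3.48 to 4.34% in PBS. Cps1, which commits ammonia to the urea cycle, had 2388, 3031, 2871, 2973 and 3282 CPM in CDDP, against 714, 699, 1053, 813 and 796 CPM in PBS. CDDP libraries were close to each other and all above PBS (log2 fold change 1.83 ± 0.25, edgeR adjusted p = 2.48e-06). Otc, the next enzyme of the cycle, went the other way, with 194, 13, 192, 143 and 30.6 CPM in CDDP, against 357, 321, 385, 349 and 323 CPM in PBS; every CDDP library was below PBS and replicates 2 and 5 were lowest (log2 fold change -1.60 ± 0.41, edgeR adjusted p = 0.00258), although the fit of the 10 libraries gave an edgeR adjusted p of 0.0517. Asl, a later enzyme, had 962, 1122, 1023, 646 and 5791 CPM in CDDP, against 825, 824, 1033, 802 and 959 CPM in PBS. Replicate 2 lay slightly and replicate 5 far above the PBS range, and without replicate 5 the log2 fold change was 0.06 (edgeR adjusted p = 0.833, against 0.0197 with all libraries). Got1, the cytosolic aspartate aminotransferase, averaged 1609 ± 2106 CPM in CDDP and 193 ± 97.2 CPM in PBS (log2 fold change 3.06 ± 0.53, edgeR adjusted p = 5.32e-05; 1.79 without replicate 5). Mat1a, which makes S-adenosylmethionine in hepatocytes, had 5058, 6199, 5275, 4220 and 18287 CPM in CDDP, against 3470, 2754, 2788, 2452 and 2336 CPM in PBS, with replicate 5 apart (log2 fold change 1.50 ± 0.28, edgeR adjusted p = 0.000123; 0.89 without replicate 5). Gnmt, which uses that methyl donor, averaged 1784 ± 820 CPM in CDDP and 547 ± 102 CPM in PBS (log2 fold change 1.70 ± 0.35, edgeR adjusted p = 0.000326). Gamt, the enzyme that completes creatine, named after its values were seen, fell to 87.9 ± 80.7 CPM in CDDP, against 626 ± 116 CPM in PBS (log2 fold change -2.83 ± 0.45, edgeR adjusted p = 1.88e-05; -3.42 without CDDP replicate 1). Odc1, the first enzyme of polyamine synthesis, averaged 88.9 ± 47.1 CPM in CDDP and 20.6 ± 4.15 CPM in PBS (log2 fold change 2.11 ± 0.28, edgeR adjusted p = 1.86e-06).

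**Figure D4:**
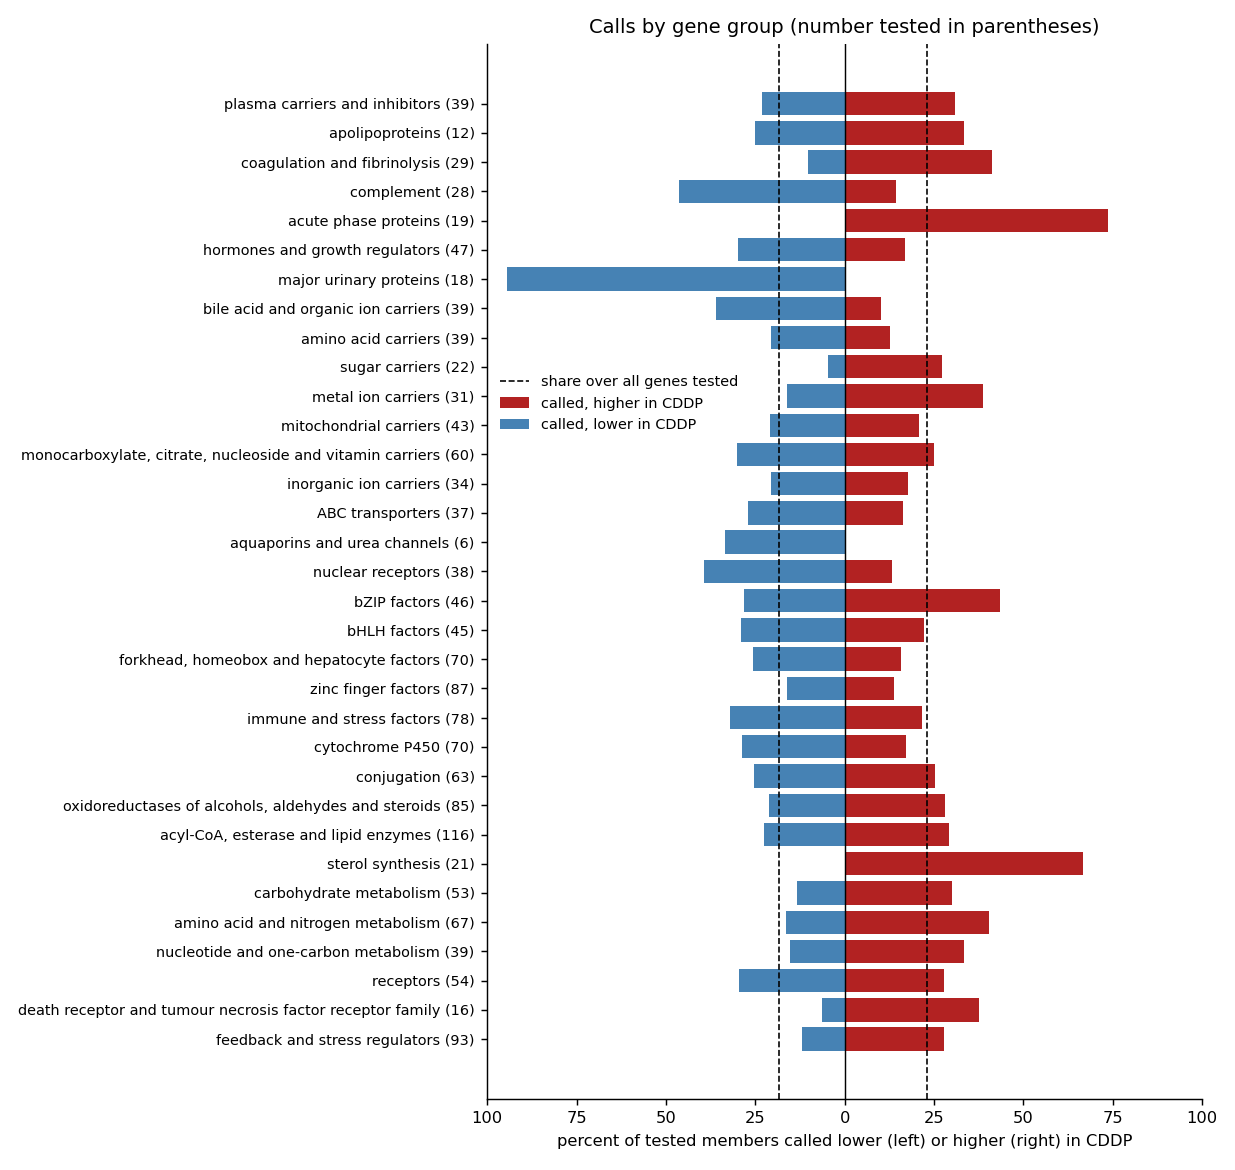
Percent of the tested members of each gene group called higher (red, right) or lower (blue, left) in CDDP, with the number tested in parentheses and dashed lines at the shares over all genes tested, 23.1% higher and 18.3% lower. Acute phase proteins with 14 of 19 higher and sterol synthesis with 14 of 21 higher have no falls, and major urinary proteins with 17 of 18 lower have no rises.

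Among 53 genes of carbohydrate metabolism 16 rose and 7 fell (43.4% called, close to the 41.4% of all genes). Ldha, lactate dehydrogenase A, averaged 1054 ± 486 CPM in CDDP and 210 ± 55.7 CPM in PBS (log2 fold change 2.33 ± 0.35, edgeR adjusted p = 1.21e-05). Pgk1, phosphoglycerate kinase, had 215, 303, 232, 326 and 354 CPM in CDDP, against 33.2, 82.6, 59.9, 53.1 and 34.6 CPM in PBS; all CDDP libraries were above PBS (log2 fold change 2.44 ± 0.39, edgeR adjusted p = 2.28e-05).

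Sterol synthesis had 14 rises and 0 falls among 21 (66.7% called, beside 41.4% of all genes). Its median log2 fold change was 0.96. Pmvk, the phosphomevalonate kinase of the mevalonate pathway, had 154, 119, 102, 158 and 167 CPM in CDDP, against 19.7, 34.9, 30.1, 48.1 and 18.9 CPM in PBS. Every CDDP library was above every PBS library (log2 fold change 2.21 ± 0.30, edgeR adjusted p = 2.59e-06). Sqle, squalene epoxidase, averaged 116 ± 23.3 CPM in CDDP and 38.7 ± 19.8 CPM in PBS, also without overlap between the groups (log2 fold change 1.59 ± 0.35, edgeR adjusted p = 0.000624). Enzymes that turn cholesterol into bile acids differed in direction. Cyp7a1, the rate-limiting enzyme of the main pathway, averaged 28 ± 15.8 CPM in CDDP and 121 ± 68.1 CPM in PBS and overlapped between groups (log2 fold change -2.11 ± 0.63, edgeR adjusted p = 0.0088). Cyp39a1, an oxysterol hydroxylase, had 80.7, 156, 127, 145 and 184 CPM in CDDP, against 12.7, 25.4, 26.1, 18.2 and 19.7 CPM in PBS, all CDDP libraries above PBS (log2 fold change 2.76 ± 0.34, edgeR adjusted p = 8.16e-07). Acox2, which shortens the bile acid side chain, averaged 201 ± 81.3 CPM in CDDP and 53.2 ± 11.1 CPM in PBS (log2 fold change 1.92 ± 0.30, edgeR adjusted p = 1.53e-05).

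Cytochrome P450 genes had 12 rises and 20 falls among 70 (45.7% called, close to the 41.4% of all genes). They took 1.51 ± 0.177% of the reads in CDDP and 1.88 ± 0.171% in PBS. Cyp2c44, an arachidonic acid epoxygenase, had 61.5, 13.7, 66.6, 43.8 and 13.1 CPM in CDDP, against 275, 316, 351, 391 and 421 CPM in PBS, with replicates 2 and 5 lowest and no overlap (log2 fold change -3.14 ± 0.33, edgeR adjusted p = 1.38e-07). Cyp1a2, the caffeine hydroxylase of pericentral hepatocytes, had 142, 12.3, 288, 251 and 14.8 CPM in CDDP, against 493, 462, 601, 492 and 473 CPM in PBS. It was below PBS in every library, but CDDP libraries differed widely, with replicates 2 and 5 lowest (log2 fold change -1.83 ± 0.48, edgeR adjusted p = 0.00352), and the fit of the 10 libraries gave an edgeR adjusted p of 0.0679. Cyp2d9, a male-predominant hydroxylase in mice, averaged 394 ± 457 CPM in CDDP and 51.6 ± 11.8 CPM in PBS (log2 fold change 2.93 ± 0.47, edgeR adjusted p = 2.22e-05; 1.92 without replicate 5).

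Carboxylesterases split by gene. Ces2e averaged 361 ± 136 CPM in CDDP and 41.2 ± 13.3 CPM in PBS (log2 fold change 3.13 ± 0.36, edgeR adjusted p = 3.47e-07). Ces3a averaged 68.3 ± 47.2 CPM in CDDP and 544 ± 172 CPM in PBS (log2 fold change -3.0 ± 0.39, edgeR adjusted p = 1.86e-06). Aldh3b3, a lipid aldehyde dehydrogenase in mice, was nearly absent in CDDP, with 0.114, 0, 0.329, 0.101 and 0.403 CPM in CDDP, against 8.13, 16.9, 19, 27.8 and 19.6 CPM in PBS (log2 fold change -6.63 ± 0.67, edgeR adjusted p = 7.56e-08). Hsd17b6, which oxidises androgens, averaged 56.5 ± 33.3 CPM in CDDP and 400 ± 115 CPM in PBS (log2 fold change -2.82 ± 0.36, edgeR adjusted p = 1.23e-06). Gstp1, the pi-class glutathione transferase that conjugates electrophiles, had 360, 735, 540, 754 and 334 CPM in CDDP, against 103, 141, 175, 181 and 135 CPM in PBS, a rise in all libraries (log2 fold change 1.89 ± 0.28, edgeR adjusted p = 9.37e-06). Reads that fit both it and the near-identical Gstp2 fall under the multiply aligned reads, which were left out. Gstp2 averaged 15.3 ± 17.9 CPM in CDDP and 1.16 ± 0.349 CPM in PBS, with 46.7 CPM in replicate 4 (log2 fold change 3.72 ± 0.63, edgeR adjusted p = 4.07e-05; 2.68 without that library). Lpin1, a phosphatidate phosphatase and coactivator, rose to 590 ± 211 CPM in CDDP, against 134 ± 87.7 CPM in PBS (log2 fold change 2.14 ± 0.37, edgeR adjusted p = 5.32e-05).

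Receptors and signalling regulators had 47 rises and 28 falls among 163 (46.0% called, close to the 41.4% of all genes). Egfr, the receptor of epidermal growth factor, averaged 356 ± 326 CPM in CDDP and 75.1 ± 15.3 CPM in PBS (log2 fold change 2.24 ± 0.37, edgeR adjusted p = 2.93e-05; 1.49 without replicate 5). Lepr, the leptin receptor, had 14.6, 124, 7.19, 31.5 and 331 CPM in CDDP, against 11.2, 2.33, 10.3, 5.11 and 8.81 CPM in PBS, with replicates 1 and 3 close to PBS (log2 fold change 3.75 ± 0.67, edgeR adjusted p = 8.53e-05; 2.53 without replicate 5). The TGF-beta receptor gene Tgfbr2 averaged 37.8 ± 35 CPM in CDDP and 7.87 ± 2.51 CPM in PBS (log2 fold change 2.26 ± 0.38, edgeR adjusted p = 3.88e-05; 1.51 without replicate 5). Fgfr3, a fibroblast growth factor receptor, averaged 32.6 ± 11.1 CPM in CDDP and 125 ± 25.5 CPM in PBS (log2 fold change -1.94 ± 0.25, edgeR adjusted p = 1.91e-06). The prolactin receptor gene Prlr averaged 69.3 ± 38 CPM in CDDP and 201 ± 20.2 CPM in PBS (log2 fold change -1.53 ± 0.24, edgeR adjusted p = 1.86e-05); both fell in every library.

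A death receptor and its ligand moved apart. Tnfrsf10b, the receptor of TRAIL and a known p53 target, had 3.81, 12.7, 4.99, 8.12 and 5 CPM in CDDP, against 0.837, 0.873, 0.492, 0.554 and 0.5 CPM in PBS (log2 fold change 3.39 ± 0.47, edgeR adjusted p = 3.19e-06). Tnfsf10, which encodes TRAIL, had 0.796, 0.279, 0.823, 0.252 and 0 CPM in CDDP, against 5.86, 6.05, 6.82, 6.16 and 3.56 CPM in PBS. The receptor was above PBS and the ligand below it in all 5 CDDP libraries (log2 fold change -3.66 ± 0.43, edgeR adjusted p = 5.38e-07). Tnfrsf12a, the receptor of TWEAK in injured liver, averaged 92.2 ± 68 CPM in CDDP and 10.2 ± 2.32 CPM in PBS (log2 fold change 3.18 ± 0.42, edgeR adjusted p = 2.32e-06). The growth inhibitor Btg2, another p53 target, averaged 290 ± 472 CPM in CDDP and 11.2 ± 4.82 CPM in PBS (log2 fold change 4.69 ± 0.76, edgeR adjusted p = 2.69e-05; 2.81 without replicate 5). Ddit4, an inhibitor of mTORC1, averaged 136 ± 193 CPM in CDDP and 7.88 ± 1.74 CPM in PBS (log2 fold change 4.11 ± 0.66, edgeR adjusted p = 2.4e-05; 2.68 without replicate 5).

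Genes outside these classes were called too; the genes from Bmper to Eef1a1 were named after their values were seen. Treh encodes trehalase, which splits the disaccharide trehalose. It had 9.9, 23.9, 7.63, 15.7 and 57.8 CPM in CDDP, against 0.658, 0.465, 0.369, 0.0616 and 0.0625 CPM in PBS, with no overlap (log2 fold change 6.11 ± 0.82, edgeR adjusted p = 2.54e-06; 5.41 without replicate 5). Bmper, a regulator of BMP signalling, had 4.61, 11.4, 2.69, 3.68 and 95.4 CPM in CDDP, against 0.359, 0.814, 0.369, 0.616 and 0.5 CPM in PBS (log2 fold change 5.44 ± 0.84, edgeR adjusted p = 1.46e-05; 3.36 without replicate 5). Car3, a carbonic anhydrase abundant in liver, had 46.9, 3.06, 43.7, 26.6 and 1.61 CPM in CDDP, against 622, 894, 941, 938 and 610 CPM in PBS. The highest CDDP library was far below the lowest PBS library (log2 fold change -5.04 ± 0.57, edgeR adjusted p = 2.99e-07). Fabp1 had 661, 1213, 590, 299 and 117 CPM in CDDP, against 3014, 3905, 4434, 4997 and 3260 CPM in PBS (log2 fold change -2.77 ± 0.37, edgeR adjusted p = 2.09e-06). Dio1, which activates thyroid hormone, averaged 16.9 ± 8.98 CPM in CDDP and 131 ± 31.5 CPM in PBS (log2 fold change -2.95 ± 0.39, edgeR adjusted p = 1.86e-06). The lysosomal protease gene Ctsl averaged 1416 ± 1470 CPM in CDDP and 242 ± 47.8 CPM in PBS (log2 fold change 2.55 ± 0.44, edgeR adjusted p = 5.21e-05; 1.65 without replicate 5). The inhibitory pattern receptor gene Nlrp12 averaged 109 ± 84.1 CPM in CDDP and 12.6 ± 3.19 CPM in PBS (log2 fold change 3.11 ± 0.45, edgeR adjusted p = 7.07e-06).

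Krt8, a keratin of simple epithelia, averaged 670 ± 452 CPM in CDDP and 139 ± 33.3 CPM in PBS (log2 fold change 2.27 ± 0.33, edgeR adjusted p = 7.82e-06). Tubb2a, a beta tubulin, averaged 209 ± 142 CPM in CDDP and 27.2 ± 12.6 CPM in PBS (log2 fold change 2.94 ± 0.55, edgeR adjusted p = 0.000135). The ribosomal protein gene Rpl3 had 510, 875, 436, 453 and 925 CPM in CDDP, against 91.6, 116, 125, 122 and 96 CPM in PBS (log2 fold change 2.54 ± 0.27, edgeR adjusted p = 1.34e-07). The elongation factor gene Eef1a1 averaged 3254 ± 989 CPM in CDDP and 673 ± 211 CPM in PBS (log2 fold change 2.27 ± 0.31, edgeR adjusted p = 3.06e-06). Both of these genes of translation have many processed pseudogenes, so their reads can align to more than 1 place, and such reads were 6.72% of all in CDDP and 11.9% in PBS; the part of this in their values was not tested.

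Changes were then sorted by how many CDDP libraries carried them. Of the 6756 calls, 4845 (71.7%) stood when each CDDP library was left out in turn, 2627 rises and 2218 falls, and 3595 calls (53.2% of the 6756) both stood and had groups that did not overlap. Leaving out replicate 5 cost 715 rises and 461 falls, and leaving out replicate 2 cost 485 rises and 531 falls, against 134 to 372 rises and 190 to 440 falls for each of the other 3. The calls lost without replicate 5 were 17.4% of all, and 160 of them had groups that did not overlap. Among the calls lost, 1 turned direction: the pseudogene Gm6520, where replicate 5 alone was high. In the fit of the 10 libraries alone the balance turned: without replicate 5, 170 rises and 108 falls of 4789 calls were lost and 957 were gained, for 5468 in all. A gene was counted as having 1 library apart when its gap to the nearest of the other 4 exceeded 0.71 of the range of log2(CPM + 0.5) over the 5. Replicate 5 was apart in 975 genes, 492 high and 483 low, while each of the other 4 was high in 47 to 111 genes and low in 12 to 51. Its median distance from the mean of the other 4 over all genes was 0.59 on the log2 scale, against 0.30 to 0.33 for the other CDDP libraries and 0.18 to 0.26 for PBS libraries.

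**Figure D5:**
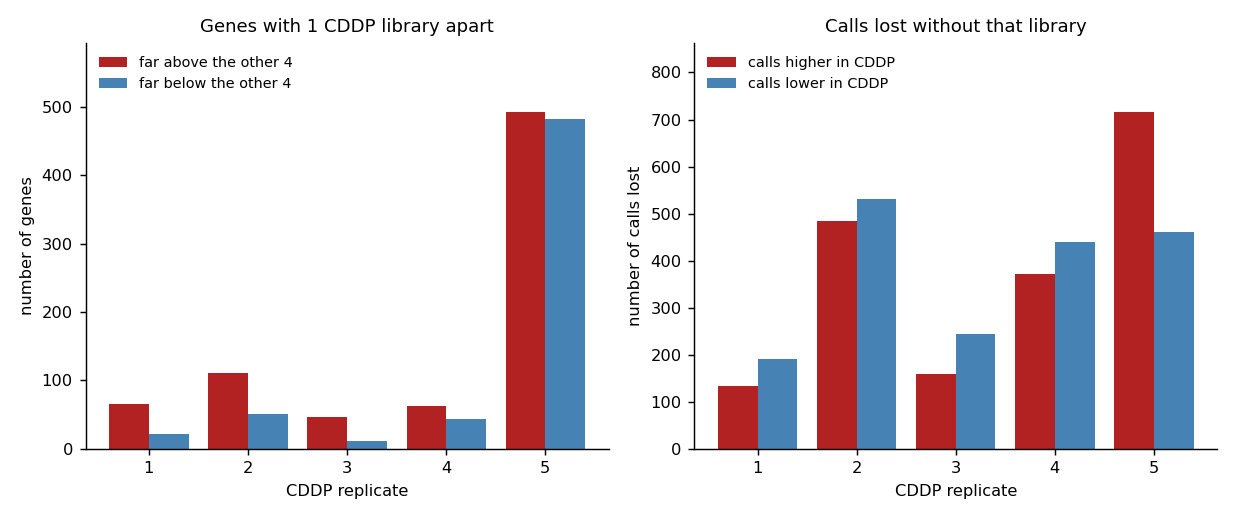
Left, number of genes in which 1 CDDP library lay far above (red) or far below (blue) the other 4; right, number of called rises (red) and falls (blue) lost when that library was left out of the fit. Replicate 5 is apart in the most genes, 492 high and 483 low, and without it 715 rises and 461 falls are lost; replicate 2 costs 485 rises and 531 falls, the most falls of any CDDP library.

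The size of the response also differed by library. Over 2094 called rises with separate groups and a mean of at least 1 CPM in CDDP, the median log2 ratio of CPM + 0.5 to the PBS mean was 0.72, 1.11, 0.78, 1.0 and 1.21 in CDDP replicates 1 to 5, and over 1668 such falls, with at least 1 CPM in PBS, it was -0.79, -1.27, -0.89, -1.08 and -1.63. Replicates 2 and 5 were at the far end for falls and replicates 1 and 3 nearest to PBS; the genes were chosen on these libraries, so this is a description with no test. Calls that rested on replicate 5 were most frequent among signalling genes, where 15 rises and 8 falls were lost without it (30.7%), against 13.3% of secreted proteins, 15.4% of enzymes and 17.4% of all calls. Tat, the tyrosine aminotransferase of amino acid breakdown, had 1163, 2034, 2910, 3404 and 13817 CPM in CDDP, against 2032, 1487, 823, 1353 and 1836 CPM in PBS and was lost without replicate 5 (edgeR adjusted p = 0.127, against 0.00454 with it). The interleukin 1 receptor gene Il1r1 had 147, 105, 97, 127 and 773 CPM in CDDP, against 95.4, 74.9, 102, 51.6 and 108 CPM in PBS, with replicate 5 alone far above PBS (edgeR adjusted p = 0.00689 with it and 0.254 without). Gadd45g, a growth arrest gene, had 59.7, 118, 320, 207 and 4463 CPM in CDDP, against 248, 46.8, 7.07, 27.4 and 121 CPM in PBS (edgeR adjusted p = 0.00747 with replicate 5 and 0.362 without). Replicate 5 was low as well: Rsrp1 and Ddx17, an arginine and serine rich protein and an RNA helicase of splicing that were named after their values were seen, had 119 and 35.1 CPM in it, against 495 to 802 CPM and 152 to 260 CPM in the other CDDP libraries. Their groups did not overlap, with log2 fold changes of -1.30 ± 0.29 and -0.84 ± 0.27, and Ddx17 was not called in the fit of the 10 libraries (edgeR adjusted p = 0.105).

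Other single libraries carried their own genes. Fgf21, a fasting and stress hormone of the liver, had 0.398, 91.1, 0.549, 2.82 and 0.484 CPM in CDDP, against 1.14, 2.85, 1.23, 5.24 and 3.5 CPM in PBS. Replicate 2 alone was above the PBS range (log2 fold change 2.77 ± 1.0, edgeR adjusted p = 0.0271), and without it the log2 fold change was -1.36. Inhbe, a hepatokine of the activin family, had 2.9, 93.3, 0.988, 1.51 and 1.45 CPM in CDDP, against 24.4, 31.1, 30.9, 48.7 and 17.1 CPM in PBS. With all libraries it was not called (edgeR adjusted p = 0.546), yet without replicate 2 its log2 fold change was -4.14 (edgeR adjusted p = 4.34e-07), and the other 4 lay far below every PBS library. Cgref1, a secreted growth regulator, named after its values were seen like the next gene, followed replicate 2 too, with 81.1 CPM there and 3.02 to 5.95 CPM in the other CDDP libraries (log2 fold change 3.75 ± 0.71, and 1.58 without it). Dmbt1, a mucin-like protein of injured epithelium, was carried by replicate 3 at 150 CPM, against at most 0.284 CPM in the other CDDP libraries and 1.13 CPM in PBS; its log2 fold change was 6.90 with that library and -0.88 without it. The stress hormone gene Gdf15 had 29.5, 77.4, 32.2, 39.9 and 6.54 CPM in CDDP, against 9.39, 18.3, 29.1, 12.1 and 18.6 CPM in PBS. Replicate 5 was its lowest library and it was not called with all libraries (edgeR adjusted p = 0.0606), whereas it passed without CDDP replicate 5 (edgeR adjusted p = 0.0138) and without PBS replicate 3 (edgeR adjusted p = 0.0333).

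Markers of other cells moved with the group. Summed over the list, erythroid markers stood at 38.1 to 46.2 CPM in CDDP and 274 to 492 CPM in PBS, B and plasma cell markers at 3.23 to 15.9 CPM in CDDP and 40.7 to 55.1 CPM in PBS, and T and NK cell markers at 3.23 to 8.53 CPM in CDDP and 18.4 to 21.1 CPM in PBS. Of these lists, 6 of 8, 11 of 13 and 11 of 14 markers were called lower, beside 18.3% of all genes, and 1 erythroid marker was called higher. The globin genes Hba-a1, Hba-a2 and Hbb-bs averaged 1.34, 0.165 and 0.474 CPM in CDDP, against 223, 52.1 and 87.8 CPM in PBS. Most of the erythroid sum in CDDP thus lay in other members of the list. Of 12 neutrophil and monocyte markers listed, 5 passed the filter on low counts. They stood at 18.4 to 75.1 CPM in CDDP and 2.25 to 3.99 CPM in PBS, with 3 of 5 called higher, beside 23.1% of all genes. Markers this low in PBS may have passed the filter through groups in which they are high, so this count is a description only. Sinusoidal endothelium had 2 rises and 8 falls among 16 (62.5% called, beside 41.4% of all genes). Its markers stood at 226 to 410 CPM in CDDP and 441 to 536 CPM in PBS. Cholangiocyte markers had 5 rises and 1 fall among 9 (66.7% called). CDDP replicate 5 was lowest at 38.6 CPM, against 84.4 to 143 CPM in the other CDDP libraries and 61.7 to 107 CPM in PBS. The part of these cells in Lcn2, Nlrp12, Krt8 and other genes that they share with hepatocytes was not tested.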

How the data were processed

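Livers were sequenced as strand-specific mRNA libraries, per the labels' protocols. The authors deposited gene-level raw counts, made with HISAT2 2.2.1 and HTSeq 2.0.3 on mm10, per the submitters' processing notes; the strand setting of the counting is not stated there. Of 48440 gene IDs, 48058 matched GENCODE names (99.2%). Rows that name no gene were left out; they held 57.5 to 60.6% of reads in CDDP and 61.8 to 63.7% in PBS, of which reads on no feature were 43.9 to 45.6% of all in CDDP and 42.9 to 43.8% in PBS, the rest being ambiguous, multiply aligned, of low quality or not aligned. All 30 libraries in 6 groups were fitted in R 4.3.3 with edgeR 4.0.16 (TMM scaling, filterByExpr, quasi-likelihood F test), limma 3.58.1 and DESeq2 1.42.0 being alternatives, after testing on simulated data. An approximate SE came from the F value, as the size of the log2 fold change over the root of F. Sequences are from RefSeq (GRCm38.p6). In all, 7 motifs were searched on both strands (CTGGGAA for interleukin 6 elements, TTCNNNGAA for STAT, CACGTG for E-boxes, TAGGTCA for REV-ERB, TTATGTAA for D-boxes, TGACGTCA for cAMP response elements and TGACTCA for AP-1), and the pair shown and the promoters printed were chosen after their matches were seen.

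Members, gene lists and tests were chosen with earlier results of these data known. The rule for naming genes takes for each class the 6 largest rises and 6 largest falls among called genes with separate groups, called hormones, the genes with the most reads and those in which CDDP replicate 5 was extreme; the text gives a part of these, chosen after their values were seen, and a few are not reported here. The other genes, among them Fga, Serpina6, Nr1i3, Cps1 and most examples of the lists, were chosen for their known roles after their values were seen. No pair of replicates agreed within sampling noise (chi-square over degrees of freedom at least 21.1).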

Additional observations from a re-analysis of the deposited data

Results flagged for a closer look

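A library was set apart when its gap to the nearest of the other 4 of its group exceeded 0.71 of the group's range. Among the genes named, 26 of 288 groups of 5 had such a library. Chance gives about 1 in 20, but some genes were named because a library stood apart or after their values were seen, so the count cannot be read against that share. The 1 in 20 is for any of the 5 libraries of a group and not for 1 given library. Over all genes tested, CDDP replicate 5 was apart in 5.98%, in 492 genes high and in 483 low. Each of the other 4 CDDP libraries was high in 47 to 111 genes and low in 12 to 51. CDDP replicate 5 was high for Hp at 37884 CPM, Serpina3k at 11369 CPM, Lbp at 1183 CPM, Hamp at 5383 CPM and Slc39a14 at 1776 CPM. It was also high for Epas1 at 620 CPM, Mat1a at 18287 CPM, Asl at 5791 CPM and Il1r1 at 773 CPM, and for the acute phase share of reads at 5.15%. The same library was low for Slc2a2 at 32.6 CPM, Rsrp1 at 119 CPM and Ddx17 at 35.1 CPM. CDDP replicate 2 was high for Fgf21 at 91.1 CPM, Inhbe at 93.3 CPM and Cgref1 at 81.1 CPM. CDDP replicate 3 was high for Dmbt1 at 150 CPM, and CDDP replicate 4 was low for Nr1i3 at 194 CPM.

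Among the genes named, PBS libraries were set apart less often, but some of these genes were named because CDDP replicate 5 was extreme. The count over all genes was made for CDDP libraries only. PBS replicate 1 was low for Serpina6 at 320 CPM, Klkb1 at 271 CPM, Per3 at 35.3 CPM and Dio1 at 77.2 CPM, and high for Arntl at 5.08 CPM. PBS replicate 2 was high for Klf6 at 12.7 CPM and had 15340 genes with at least 10 counts. PBS replicate 3 was high for Cyp1a2 at 601 CPM and for the shares of reads of cytochrome P450 genes at 2.18% and of all enzymes at 12.8%. PBS replicate 5 was high for Dmbt1 at 1.13 CPM and low for Tnfsf10 at 3.56 CPM. The causes were not tested.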

How the results depend on the processing

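Of 136 called genes named, 111 stayed called in the same direction under every alternative in which they were tested. For Bhlha15 these were 16 alternatives, against 18 for most genes. The other 25 were lost under at least 1, most often when a fold of 1.5 was tested (16) or the fit held the 10 libraries alone (13). The count of calls fell to 2646 when a fold of at least 1.5 was tested, against 6756, and in the fit of the 10 libraries to 91, against 137, for transporters and to 48, against 75, for signalling genes. Leaving out 1 library at a time gave 5902 to 7053 calls. Without the mitochondrial genome in the denominator, the share of nuclear receptors differed by -0.193 percentage points, against -0.153, and that of cytochrome P450 genes by -0.55, against -0.37. With voom quality weights the log2 fold change was -0.07 for Alb, -0.075 for Apoa1 and -1.374 for Fgf21, each of opposite sign to the value reported. Over single libraries left out, that of Alb ran between -0.038 (without CDDP replicate 5) and 0.22, that of Fgf21 between -1.356 (without CDDP replicate 2) and 3.128, and that of Dmbt1 between -0.88 (without CDDP replicate 3) and 9.647. The causes were not tested beyond the libraries left out. RLE scaling moved the median of all genes to -0.02, against 0.018. No paired analysis was possible because the labels number the libraries in 1 run, with no replicate numbers shared between the groups. Depth limits genes near 1 CPM, such as Tnfsf10 and Dmbt1.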
